A study of Mus musculus with 3 samples.

Results

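The genes described here encode enzymes that build, lengthen and desaturate fatty acids. The list was fixed by symbol and holds 10 genes: Acly, Acaca, Fasn, Elovl1, Elovl5, Elovl6, Scd1, Scd2, Fads1 and Fads2. Of these, 9 had a named probe set, 1 each, among 19505 genes of the array, and Scd2 was not analysed here. All 9 passed the level filter that 10003 genes passed, a mean log2 intensity of at least 5.44 or an intensity of 43.3.

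CD8 T cells of the mouse, stimulated with CD3 and CD28, were cultured with cytokines of the Tc1 condition, which drives CD8 T cells toward interferon-gamma-producing cytotoxic effectors. One sample received no added cholesterol (control), another 0.5 µg/ml and the third 0.75 µg/ml, and total RNA of each was hybridised to 1 array. The labels used here give no strain, sex, age, number of animals, carrier for the cholesterol or length of exposure, so effects of cholesterol and of its carrier cannot be told apart. With 1 array per condition there is no replicate error, no difference was tested, and precision is limited by having so few arrays. Values are intensities on a linear scale, whose levels are not comparable between genes, and differences are of log2 intensity.

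Fatty acid synthesis starts in the cytosol from citrate, which ATP citrate lyase (Acly) splits into acetyl-CoA. Acetyl-CoA carboxylase (Acaca) makes malonyl-CoA, and fatty acid synthase (Fasn) joins these units into palmitate. Elongases of the ELOVL family extend fatty acids in the endoplasmic reticulum, stearoyl-CoA desaturase (Scd1) makes monounsaturated fatty acids, and the delta-5 and delta-6 desaturases (Fads1 and Fads2) act in the making of long polyunsaturated fatty acids from the essential ones. In liver cells many of these genes are driven by the transcription factors SREBP1 and, less strongly, SREBP2, whose release from the endoplasmic reticulum sterols block, and oxysterol-activated LXR raises the SREBP1 gene and Scd1. Activated T cells make fatty acids for new membranes as they divide.

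Promoter sequence from RefSeq (GRCm38.p6) is shown for Fads2 and Elovl6, which differed most among these genes at 0.75 µg/ml, for Fasn, which differed little, and for the sterol synthesis gene Hmgcs1, which was 6.49-fold lower at that dose than in the control. Each window is the 250 bases before the annotated gene start, on the gene's strand. Capitals mark matches, on either strand, to TCACNCCAC (a form of the sterol regulatory element that SREBP binds), CACGTG (an E-box, which SREBP1 also binds), CCAAT (the box of NF-Y) and GGGCGG (the box of Sp1). NF-Y and Sp1 are known to act beside SREBP at its target promoters. The positions are chr19:10101504-10101753 (minus strand) for Fads2, chr3:129532136-129532385 (plus strand) for Elovl6, chr11:120824548-120824797 (minus strand) for Fasn and chr13:119690101-119690350 (plus strand) for Hmgcs1.
Fads2: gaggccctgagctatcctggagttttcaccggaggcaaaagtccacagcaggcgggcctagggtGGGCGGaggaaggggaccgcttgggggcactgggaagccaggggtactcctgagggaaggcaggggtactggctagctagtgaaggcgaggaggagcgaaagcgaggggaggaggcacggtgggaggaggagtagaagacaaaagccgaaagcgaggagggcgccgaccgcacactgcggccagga
Elovl6: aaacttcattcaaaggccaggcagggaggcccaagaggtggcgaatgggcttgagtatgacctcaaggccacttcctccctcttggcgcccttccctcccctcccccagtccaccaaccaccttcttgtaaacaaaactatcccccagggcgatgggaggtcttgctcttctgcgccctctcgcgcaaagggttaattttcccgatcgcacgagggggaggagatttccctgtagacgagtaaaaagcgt
Fasn: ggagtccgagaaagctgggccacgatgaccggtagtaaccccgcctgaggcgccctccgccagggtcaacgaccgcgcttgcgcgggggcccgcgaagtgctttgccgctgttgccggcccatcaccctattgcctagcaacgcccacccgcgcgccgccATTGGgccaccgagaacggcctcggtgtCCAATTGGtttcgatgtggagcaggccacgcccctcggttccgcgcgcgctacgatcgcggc
Hmgcs1: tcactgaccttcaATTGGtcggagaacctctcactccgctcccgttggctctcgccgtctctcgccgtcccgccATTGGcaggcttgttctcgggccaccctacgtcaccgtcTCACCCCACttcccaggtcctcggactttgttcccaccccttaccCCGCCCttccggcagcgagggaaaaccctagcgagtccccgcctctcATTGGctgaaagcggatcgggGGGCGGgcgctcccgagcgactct

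The Fads2 window held 1 Sp1 box, which begins 186 bases before the gene start, and none of the other motifs. The Elovl6 window held no match to any of the 4 motifs. Fasn held 3 NF-Y boxes, of which those that begin 62 and 59 bases before the start overlap on opposite strands. Hmgcs1 held 1 sterol regulatory element, 137 bases before the start, with 3 NF-Y boxes and 2 Sp1 boxes. Windows were given for 7 of the 10 listed genes, with 2 for Elovl1. Of their 8 windows, 0 held TCACNCCAC, 1 held CACGTG (Elovl5), 3 held CCAAT and 4 held GGGCGG. Of the 18 windows given for 15 sterol synthesis genes, 1 held TCACNCCAC, that of Hmgcs1. Among the same 18 windows, 3 held CACGTG, 14 held CCAAT and 15 held GGGCGG. Of all 32851 promoter windows of this length, 1.05% held TCACNCCAC, 6.02% CACGTG, 33.8% CCAAT and 32.7% GGGCGG. A window without a match lacks only these letters, and matches are letters rather than sites shown to be bound.

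At 0.75 µg/ml cholesterol all 9 genes were below the control, by log2 differences of -0.05 to -4.42 as deposited, the last of them (Fads2) resting on a value under the background level. Fads2, Elovl6 and Fads1 were at least 2-fold lower, so 3 of 9 genes passed that size, against 1.59% of the 10003 genes past the level filter. None of the 9 was 2-fold higher, as 0.3% of the genes past the filter were. The median log2 difference of the 9 genes was -0.42, or -0.34 without Fads2, against 0.00 over all genes past the filter. Of all genes past the filter, 48.0% were below the control at this dose. Elovl5 and Elovl1 were barely below it, at -0.05 and -0.07, and at -0.003 and -0.03 after median centring of the arrays. In a bulk sample, fewer cells that express a gene and less RNA per cell cannot be told apart.

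**Figure D1:**
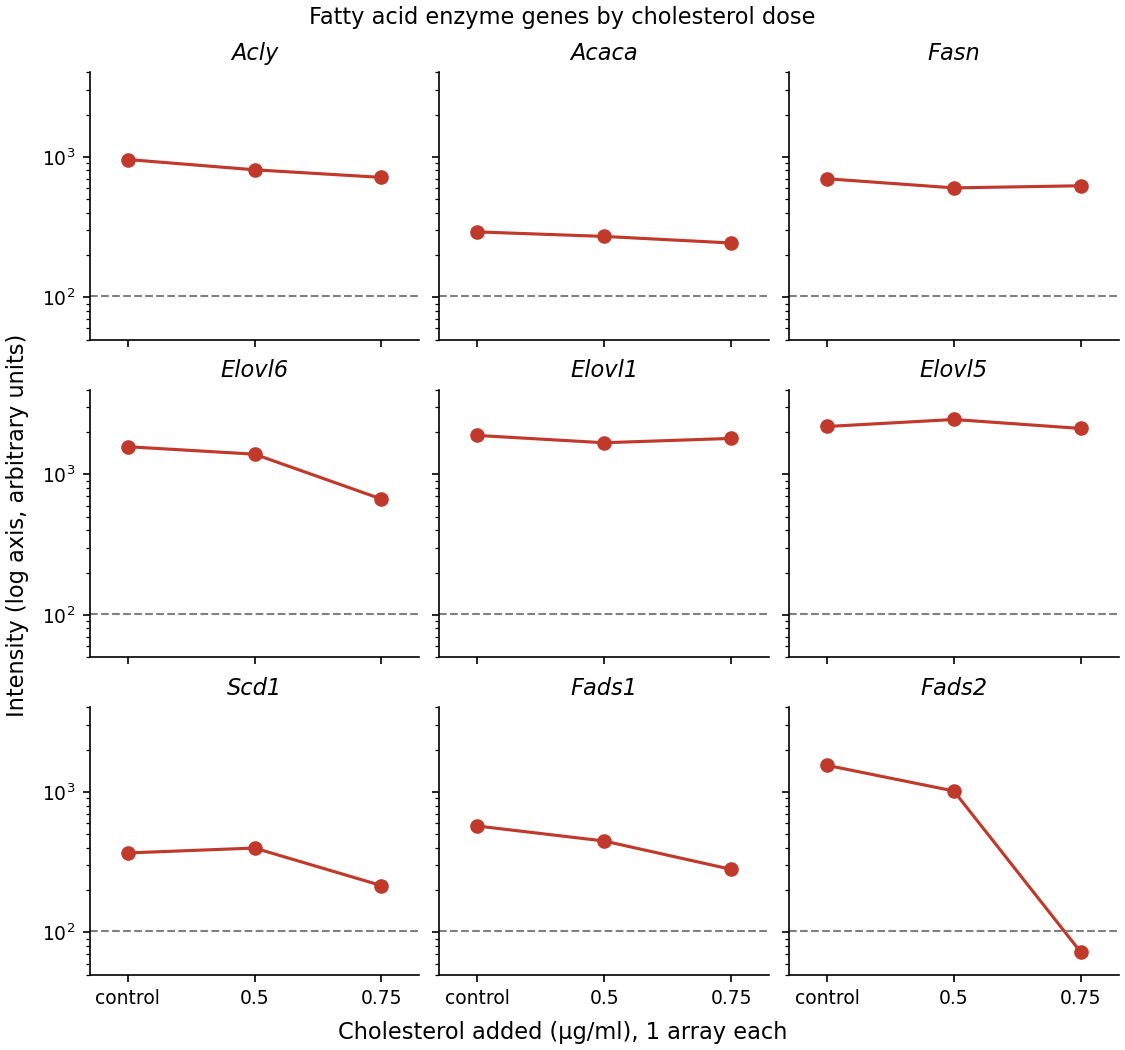
Intensity (log axis) of each of the 9 genes by cholesterol dose, 1 array each, with the background level of 102 as a dashed line. Fads2 goes under the dashed line at 0.75 µg/ml, Elovl6, Scd1 and Fads1 are visibly lower there, and Elovl1, Elovl5 and Fasn are nearly level.

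Among the desaturases, the delta-6 desaturase gene Fads2 had an intensity of 1548 on the control array, 1016 with 0.5 µg/ml and 72.4 with 0.75 µg/ml. The last value lies under the background level of 102, the highest of the 3 arrays' 95th percentiles of negative-control probe sets, so only a bound of the fold is given. Fads2 was at least 15.2-fold lower at 0.75 µg/ml than in the control, and at least 9.98-fold lower than at 0.5 µg/ml. Its log2 difference was the lowest of all 10003 genes past the filter in both comparisons, also when every value under the background level was raised to that level. At 0.5 µg/ml it differed from the control by -0.61, and 64 of the 10003 genes differed by more in that direction as deposited. Its rank from the lowest there was 22 when values under the background level were raised to that level. With the value at 0.75 µg/ml raised to the background level, Fads2 differed by -3.93 from the control and by -3.32 from 0.5 µg/ml, so the larger part lay between the doses.

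The delta-5 desaturase gene Fads1, which acts after Fads2 on the same fatty acids, had intensities of 572 without added cholesterol, 447 with 0.5 µg/ml and 281 with 0.75 µg/ml. It was 2.03-fold lower at 0.75 µg/ml than in the control (log2 difference -1.02), and by a log2 difference of -0.67 lower than at 0.5 µg/ml. Median centring of the arrays took the difference from the control at 0.75 µg/ml to -0.98, as did a pseudocount of 16, so 2 of 9 genes then passed 2-fold. Both steps of dose went the same way, with -0.35 at 0.5 µg/ml against the control.

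The stearoyl-CoA desaturase gene Scd1 had intensities of 368, 399 and 215 on the control, 0.5 and 0.75 µg/ml arrays. It was slightly above the control at 0.5 µg/ml (log2 difference 0.12) and below it at 0.75 µg/ml (-0.77, or 1.71-fold lower). Between the doses Scd1 differed by -0.89, and 159 of the 10003 genes were lower in that comparison. Scd1 did not reach 2-fold in any comparison.

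Among the elongases, Elovl6, which extends palmitate and other saturated and monounsaturated fatty acids of similar length, had intensities of 1574, 1393 and 667 on the control, 0.5 and 0.75 µg/ml arrays. It was 2.36-fold lower at 0.75 µg/ml than in the control (-1.24) and 2.09-fold lower than at 0.5 µg/ml (-1.06). At 0.5 µg/ml it was close to the control, at -0.18. Like Fads2, Elovl6 had the larger part of its difference between the doses.

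The other elongase genes stayed near the control. Elovl5, which lengthens polyunsaturated fatty acids made by the delta-6 desaturase, had intensities of 2192, 2459.8 and 2123 on the control, 0.5 and 0.75 µg/ml arrays. Its differences from the control were 0.17 at the lower and -0.05 at the higher dose. Elovl1, which makes very long saturated fatty acids used in sphingolipids, had intensities of 1893, 1679 and 1804 on the same arrays, with differences of -0.17 and -0.07. Elovl5 and Fads2 serve the same polyunsaturated route, and at 0.75 µg/ml against the control Elovl5 differed by -0.05 while Fads2 was at least 15.2-fold lower.

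**Figure D2:**
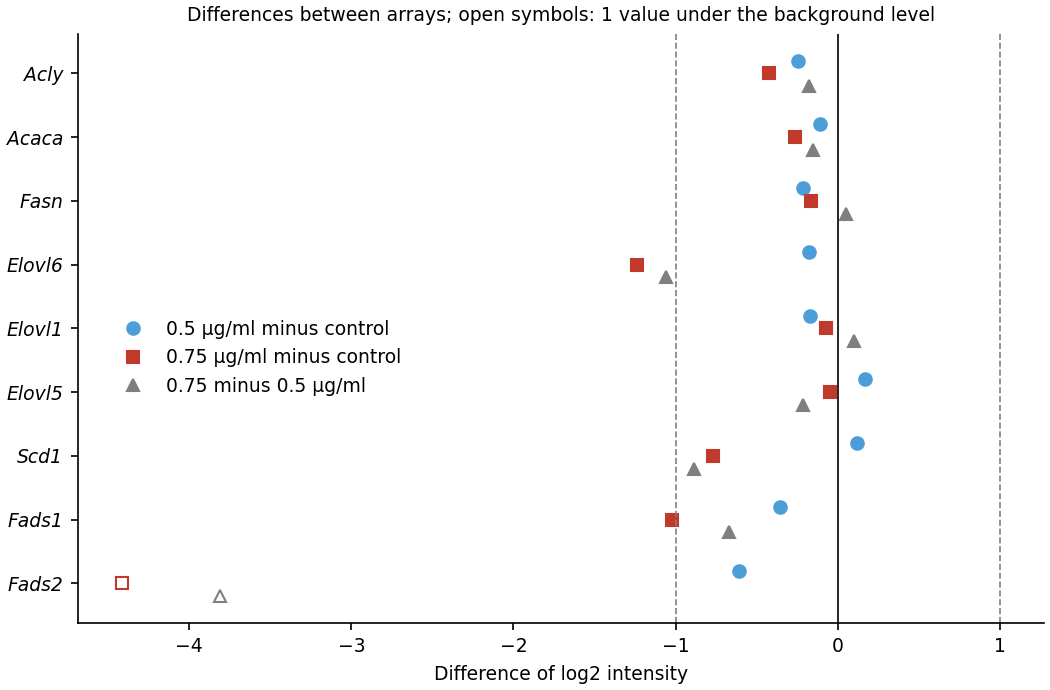
Difference of log2 intensity for each gene in the 3 comparisons, with dashed lines at 2-fold and open symbols where 1 of the 2 intensities is under the background level. Fads2, Elovl6 and Fads1 pass the lower line at 0.75 µg/ml against the control, no gene does at 0.5 µg/ml, and no gene passes the upper line.

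The genes of palmitate synthesis differed less. Acly had intensities of 956, 808 and 714 on the control, 0.5 and 0.75 µg/ml arrays, and was 1.34-fold lower at 0.75 µg/ml than in the control (-0.42). Acaca had 292, 271 and 243 on these arrays, with a difference of -0.26 at 0.75 µg/ml. Fasn had 698, 601 and 622 on them, with differences of -0.22 at the lower and -0.17 at the higher dose. Acly and Acaca stepped down at each dose, while Fasn was lowest at 0.5 µg/ml.

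At 0.5 µg/ml, 7 of the 9 genes were below the control and 2, Elovl5 and Scd1, were above it. None reached 2-fold in either direction, where 0.02% of the genes past the filter were 2-fold lower and 0.06% were 2-fold higher. The median log2 difference of the 9 genes at this dose was -0.18, against 0.01 over all genes past the filter, of which 44.7% were below the control. Fads2 was the only one of the 9 to pass 1.5-fold at this dose, at 1.52-fold lower, and 0.74% of the genes past the filter were at least 1.5-fold lower.

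Between the doses, 7 of the 9 genes had less signal at the higher dose, where 51.5% of the genes past the filter did, and Elovl1 and Fasn were slightly higher, by 0.10 and 0.05. Fads2 and Elovl6 were at least 2-fold lower, so 2 of 9, against 1.2% of the genes past the filter, and 0 were 2-fold higher, against 0.33%. The median of the 9 genes was -0.21, against -0.01 over all genes past the filter. Of the 9 genes, 5 (Fads2, Fads1, Elovl6, Acly and Acaca) were lower at each step of dose, and 20.3% of the genes past the filter had that order. The comparisons share arrays, so their values are given side by side and are not independent of each other.

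**Figure D3:**
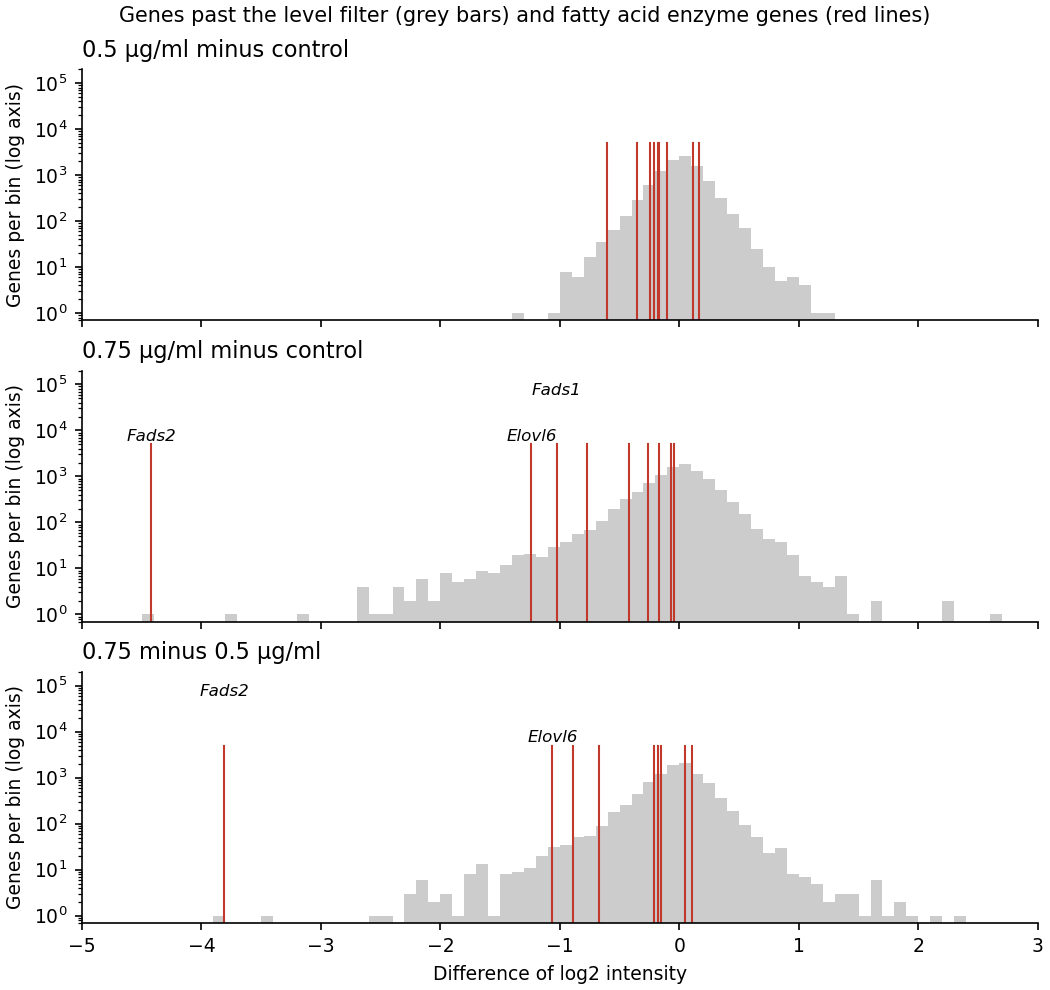
Number of genes past the level filter (log axis, bins of 0.1) by difference of log2 intensity in the 3 comparisons, with a red line for each of the 9 fatty acid enzyme genes. Fads2 stands at the far low end in the comparisons with 0.75 µg/ml, at -4.42 and -3.81 as deposited from a value under the background level, while at 0.5 µg/ml the 9 lines lie between -0.61 and 0.17.

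In place of a replicate spread, the array's 1135 positive-control probe sets past the level filter had log2 differences with an SD of 0.27 for the lower dose against the control, 0.30 for the higher dose against the control and 0.28 between the doses. At 0.75 µg/ml, 4 of the 9 genes (Elovl5, Elovl1, Fasn and Acaca) differed from the control by less than 0.30, and 5 by more. At 0.5 µg/ml, 7 of the 9 differed by less than that SD, and the exceptions were Fads1 and Fads2. The SD over the 10003 genes past the filter was 0.20 for the lower dose against the control, 0.35 for the higher dose and 0.31 between the doses. Acly (-0.24) and Fasn (-0.22) at 0.5 µg/ml were under the SD of the positive controls but past that of the genes. Either SD describes probe sets within a pair of arrays and holds no variation between cultures. Of the positive controls, 0.969% differed at least 2-fold at 0.75 µg/ml against the control.

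All 7 CD8 T cell markers of the sample check were above the background level on all arrays. Cd8a had 4225, 4164 and 3313 on the control, 0.5 and 0.75 µg/ml arrays, and Gzmb, which encodes the cytotoxic protease granzyme B, had 7611, 7741 and 8136. Of the 7, 5 were below and 2 above the control at 0.75 µg/ml, with a median of -0.09, and they ran from -0.35 (Cd8a) to 0.10 (Gzmb). Cd8b1 and Cd3d were also lower, at -0.34 each, so they and Cd8a differed by more than the positive-control SD of 0.30. Markers of fat and liver cells, which use these enzymes heavily, were all under the background level, with a summed intensity of 167, 131 and 149 over 8 genes on the same arrays. Such sums can be read only across arrays within a list, as levels are not comparable between genes. They do not measure how many cells of a type were present. The 5 B cell markers summed to 191, 165 and 172, and only Cd79b, at 111, 100.3 and 105, passed the background level on any array. The 9 macrophage and dendritic cell markers summed to 400.5, 426 and 226, and the 3 CD4 T cell markers to 249.6, 285 and 255. Of the CD4 T cell list, only Zbtb7b was above the background level, on all 3 arrays, at 178, 235 and 209. Only the MHC class II gene H2-Ab1 of the macrophage and dendritic cell list was above the background level on any array, at 266, 285 and 83.4. Like Fads2 it was lower than the control at 0.75 µg/ml. At 0.5 µg/ml H2-Ab1 was slightly above the control (0.10), where Fads2 was at -0.61. The part of H2-Ab1 in the result was not tested.

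Other enzymes of fatty acid synthesis and modification, 23 in a list chosen by function, were mostly dim or level. At 0.75 µg/ml against the control, 11 were below, 11 above, and 1 was at least 2-fold lower. That gene was Slc25a1, the mitochondrial citrate carrier that supplies the substrate of Acly, with intensities of 1569, 1167 and 614 on the control, 0.5 and 0.75 µg/ml arrays and a difference of -1.35 (2.56-fold lower). Acss2, which makes acetyl-CoA from acetate, had 194.9, 194.7 and 144 on these arrays, with -0.44 at 0.75 µg/ml. The list's median was 0.00 at 0.75 µg/ml and 0.06 at 0.5 µg/ml, and 10 of its 23 genes were above the background level on any array.

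Close relatives of the 9 enzymes were among the dim genes. Fads3, a desaturase-family gene beside Fads1 and Fads2, had intensities of 17.5, 18.6 and 18.5 on the control, 0.5 and 0.75 µg/ml arrays, and the stearoyl-CoA desaturase genes Scd3 and Scd4 had 24.5, 24.6 and 24.5 (Scd3) and 23.0, 27.5 and 34.3 (Scd4) on these arrays. Acacb, the carboxylase isoform tied to fatty acid oxidation, had 84.8, 98.6 and 78.9, and malic enzyme (Me1), a source of NADPH for Fasn, had 11.1, 11.1 and 6.48. All 5 lay under the background level on every array, so no fold is given.

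Fads2 and Fads1 are neighbours on chromosome 19 in the RefSeq order, and the measured genes beside them were near the control. On the side of Fads1, Fen1, a DNA replication nuclease gene, had 607, 628 and 671 on the control, 0.5 and 0.75 µg/ml arrays, and Tmem258 had 412.8, 402 and 412.8. On the other side lie Fads3 and, further along, the ferritin gene Fth1, at 4313, 5127 and 5012. Around Scd1, the genes Cwf19l1, at 315, 324 and 318, and Bloc1s2, at 443, 499 and 553, were near or above the control. These neighbours were chosen by position, after the values of the enzyme genes were seen.

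**Figure D4:**
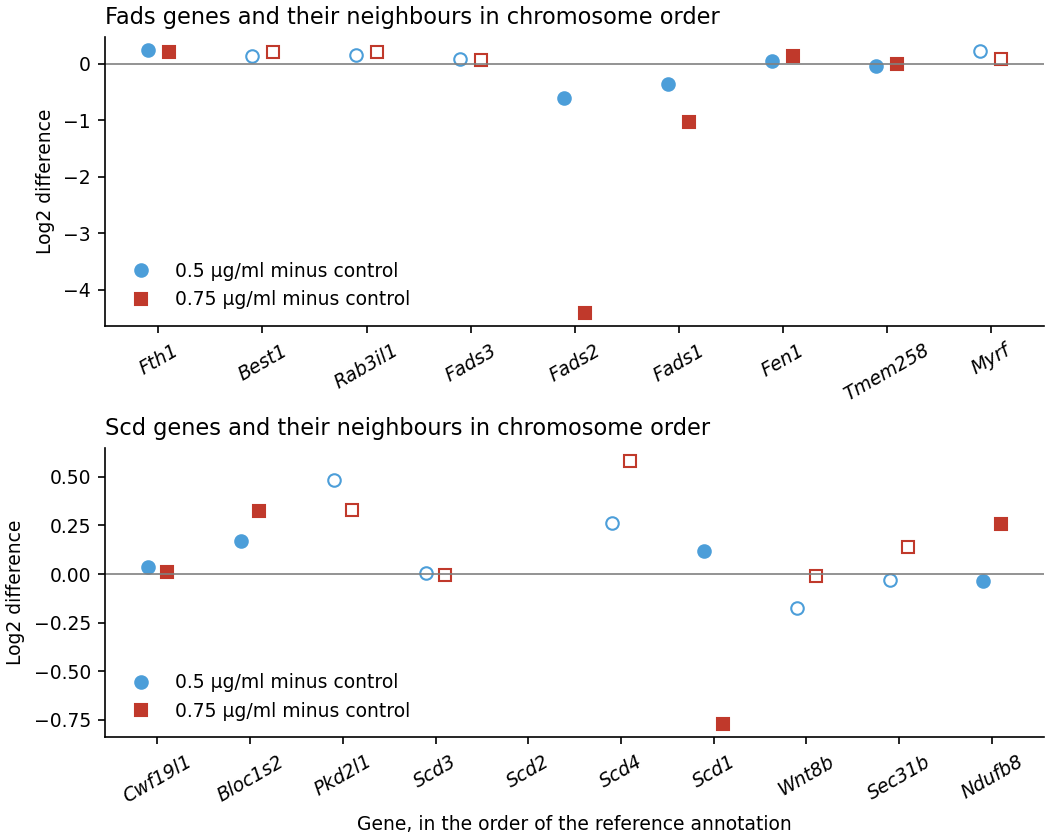
Difference of log2 intensity from the control at 0.5 and 0.75 µg/ml for genes in RefSeq order around Fads1 and Fads2 (top) and Scd1 (bottom), with open symbols for genes under the background level on every array and no point for Scd2. Fads2 and Fads1 are low, at -4.42 (as deposited) and -1.02 at 0.75 µg/ml, and Fen1 and Tmem258 next to them are at 0.14 and 0.00; Scd1 is at -0.77.

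Of the 18 listed regulators, 14 were measured. SREBP1 and LXR-beta (Srebf1 and Nr1h2) were not analysed here. Srebf2, which encodes SREBP2, had intensities of 2759, 2304 and 1188 on the control, 0.5 and 0.75 µg/ml arrays and was 2.32-fold lower at 0.75 µg/ml than in the control. Insig1, an SREBP target gene that encodes a retention factor for SREBP, had 779, 605 and 176 on these arrays and was 4.41-fold lower. Rxra, the partner of LXR and other nuclear receptors, had 36.0, 53.5 and 172 on them and was at least 1.69-fold higher, counted from the background level. The gene for LXR-alpha, Nr1h3, was under the background level throughout, at 32.9, 45.6 and 37.5. The list's median at 0.75 µg/ml was 0.03, with 6 genes below and 8 above.

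The sterol synthesis genes, the other main SREBP targets, give a scale for these differences. At 0.75 µg/ml against the control, 15 of the 16 measured were at least 2-fold lower as deposited, with a median of -1.82 and a range of -2.70 to 0.01. Of the 16, 10 were above the background level on every array. With values under that level raised to it, 14 were at least 2-fold lower, and Mvk was at least 1.52-fold lower. Of the 9 fatty acid enzyme genes 3 were 2-fold lower, with a median of -0.42 and a range of -4.42 (as deposited) to -0.05. At 0.5 µg/ml the medians were -0.52 for sterol synthesis genes and -0.18 for the fatty acid enzyme genes. The lists were not set against each other by a test, and both are known to hold sterol-regulated genes.

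Genes that use fatty acids once made were near the control as groups. Of 24 measured genes of acyl-CoA activation, binding and glycerolipid synthesis, the median at 0.75 µg/ml was 0.07, with 10 below and 14 above. Among those above the background level, the phosphatidate phosphatase gene Lpin1 had the largest difference, with intensities of 422, 330.0 and 247 on the control, 0.5 and 0.75 µg/ml arrays and -0.77 at 0.75 µg/ml. The acyl-CoA-binding protein gene Dbi had 801, 698 and 532 on these arrays (-0.59), and the lysophosphatidate acyltransferase gene Agpat4 had 415, 348 and 278 (-0.58). Gpat3, a glycerol phosphate acyltransferase gene, had 76.5, 96.3 and 107, the last being the only one above the background level.

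Mitochondrial fatty acid synthesis runs on a separate set of enzymes. The median of its 9 measured genes was 0.04 at 0.75 µg/ml, with 2 below and 7 above and none 2-fold different. Mecr, the reductase of that route, had 115, 101 and 139.95 on the control, 0.5 and 0.75 µg/ml arrays (0.28 at 0.75 µg/ml). The 21 measured genes of fatty acid oxidation had a median of -0.06, with 13 below and 8 above and none 2-fold different. Cpt2, which passes acyl groups to CoA inside mitochondria, had 176, 156 and 134 on these arrays (-0.39), and Eci2, an enoyl-CoA isomerase gene, had 407, 322 and 318 (-0.36). Of the same list, Etfdh had 542, 519 and 459 (-0.24), while Eci1 was higher, at 141, 160 and 165 (0.23).

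**Figure D5:**
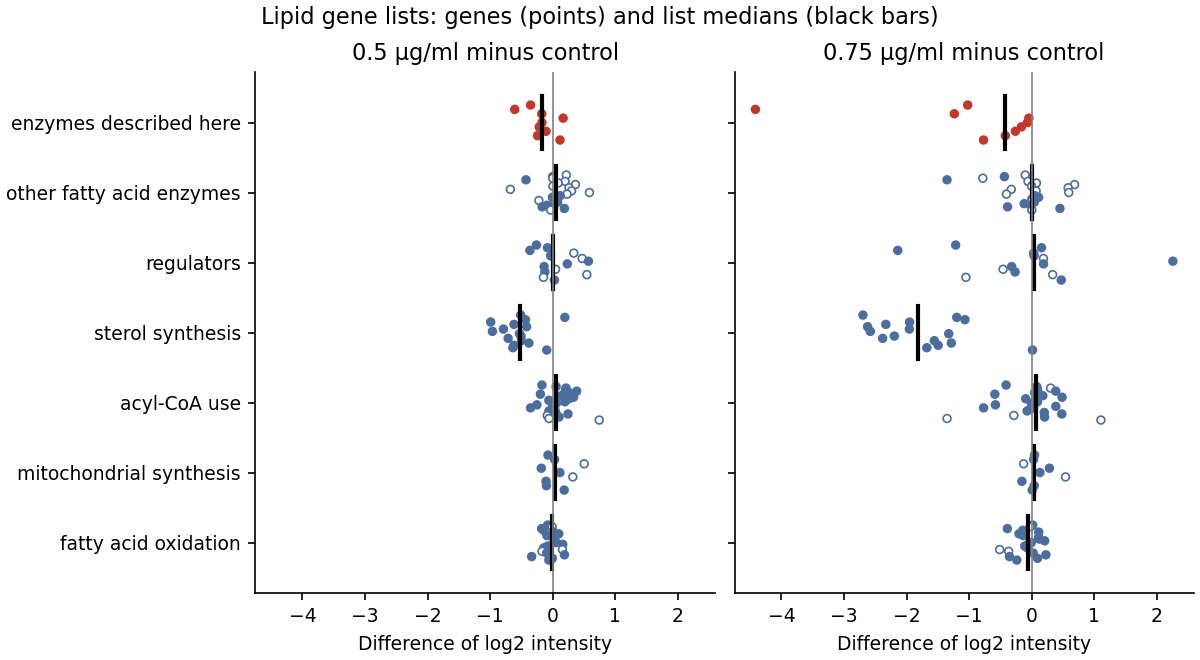
Difference of log2 intensity from the control at 0.5 µg/ml (left) and 0.75 µg/ml (right) for each measured gene of 7 lists, with black bars at the list medians and open points for genes under the background level on every array. At 0.75 µg/ml the sterol synthesis median is -1.82, that of the 9 fatty acid enzyme genes is -0.42, and the other 5 lists have medians between -0.06 and 0.07.

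The genes whose pair of differences from the control lay nearest to that of Fads2, by Euclidean distance over the 2 doses among genes past the filter, were Aldoc, Tgm2, Hmgcs1, Ifit3b and Fdps on the deposited values. Fads2 was the lowest gene at 0.75 µg/ml, and these 5 held ranks 2 to 6 from the lowest there. Their distances of 0.73 to 1.80 were large, so none of these genes was close to Fads2. Fads2 and all of these except Hmgcs1 were under the background level at 0.75 µg/ml, so their distances and order are not measured there. The aldolase gene Aldoc had intensities of 688, 555 and 51.2 on the control, 0.5 and 0.75 µg/ml arrays and was at least 6.76-fold lower at 0.75 µg/ml than in the control. Ifit3b was at least 1.70-fold lower in that comparison, a much smaller bound than that of Fads2. The HMG-CoA synthase gene Hmgcs1 had 1848, 1295 and 285 on these arrays. Around Elovl6 the nearest were Helz2, Oas3, Igsf23, Trim30a and As3mt, of which Igsf23 was under the background level on every array and As3mt at 0.75 µg/ml. The others, Helz2, Oas3 and Trim30a, lay at distances of 0.03 to 0.07. Helz2, which encodes a helicase, had 602, 529 and 261 on the same arrays, and Oas3, a 2'-5' oligoadenylate synthetase gene, had 446, 399 and 183. Likeness over 3 arrays rests on 2 differences with a shared control.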

How the data were processed

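Values in the deposited table are intensities, 1 for each probe set on each array, and their range (3.32 to 11837) is that of a linear scale. Per the labels' protocols, total RNA from Trizol was biotin-labelled by a whole-transcript method. How background was corrected and arrays normalized is not given in the sources used here. The table holds 28846 probe sets, of which 22206 are transcripts. Of these, 19572 have 1 gene symbol in the platform annotation, 0 have several and the other 2634 are unnamed. RefSeq matched all 19572 identifiers (GRCm38.p6).

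Log2 was taken with no further normalization, and for 55 genes with several probe sets the brightest was used. The level filter was the median of the transcript probe sets' mean log2 values, which 14.2% of 5222 negative controls also passed. The background level was the 95th percentile of the negative controls, taken from the array where it was highest. Where 1 value of a pair lay under it, that value was raised to it and the fold is a lower bound. A gene was counted at 2-fold. Array medians over transcript probe sets ran from 43.3 to 44.5.

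The enzyme list and the other lists were chosen with earlier results of these data known, and counts and medians of lists are descriptions. Genes outside the enzyme list came mainly from sets drawn by rule, and not every gene so drawn is named in the text. From each list the rule took those at least 2-fold different and above the background level on 1 array or more. Otherwise it took up to 4 with the largest differences at 0.75 µg/ml. A fixed set (Srebf1, Srebf2, Insig1, Nr1h2, Nr1h3, Fads3, Acacb, Me1, Acss2, Scd3, Scd4) and the 5 nearest to Fads2 and to Elovl6 were added. The chromosome neighbours were chosen by position. The counting steps were tested on simulated data. Python 3.11.15, numpy 2.4.6, pandas 2.3.3 and matplotlib 3.10.9 were used. Alternatives were quantile normalization, median centring, dim values raised, a pseudocount of 16, the mean of all probe sets, a 1.5-fold size and no level filter.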

Additional observations from a re-analysis of the deposited data

How the results depend on the processing

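Quantile normalization moved no difference of the 9 enzyme genes by more than the SD of the positive controls. Median centring shifts all genes of a comparison alike, here by 0.04 at most, so it could not move these genes that far. Counts of these genes at 2-fold stayed as they were, except at 0.75 µg/ml against the control. There, median centring left 2 of 3 genes at least 2-fold lower. The gene lost was Fads1, at -0.98 under median centring and under a pseudocount of 16, against -1.02 as deposited. Quantile normalization brought the sterol synthesis genes at least 2-fold lower at 0.5 µg/ml to 1, against 0. With values under the background level raised to it, Fads2 differed by -3.93 at 0.75 µg/ml against the control and by -3.32 between the doses. By construction of that alternative, 0 regulators were then 2-fold higher at 0.75 µg/ml against the control or against 0.5 µg/ml, and 0 acyl-CoA genes were 2-fold different. Likewise the median of the regulators between the doses was 0.00 (-0.20 as deposited) and that of sterol synthesis genes -1.04 (-1.11 as deposited). With a pseudocount of 16, the median of sterol synthesis genes at 0.75 µg/ml was -1.69, and 0 acyl-CoA genes were 2-fold higher than in the control or 2-fold lower than at 0.5 µg/ml. At 1.5-fold, 1 enzyme gene was lower at 0.5 µg/ml and 4 were lower between the doses. The mean of all probe sets could not change the 9 genes, which have 1 probe set each. With no level filter, 29 genes were 2-fold lower and 25 higher at 0.5 µg/ml, against 2 and 6, and 82 were 2-fold higher at 0.75 µg/ml against the control and 76 between the doses, against 30 and 33. No paired analysis was possible because each group has 1 array and no test was run. No replicate could be left out for the same reason.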
